A study of Homo sapiens with 10 samples.

Results

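Expression of 43 genes of DNA replication and mitosis was followed in 5 melanoma cell lines with mutant BRAF, which respond to the BRAF inhibitor encorafenib and the MEK inhibitor binimetinib, and in their 5 resistant derivatives (E+BRes). The genes were selected by symbol and were 43 of the 57955 genes in the deposited tables. Of these, 23 act in DNA replication and 20 in mitosis, and both sets are described apart. All 43 were among the 17287 genes that passed the filter on low counts.

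The sensitive group held the original WM983A, WM983B, WM278, WM1617 and WM902B cells, without inhibitors. The resistant group held the same 5 lines after culture with both inhibitors, for which the dose was stepped up over 3 to 5 months, beginning at 1 nM and ending at the 200 nM in which these cells were then kept. The WM983A, WM278 and WM902B lines came from primary tumours, and WM983B and WM1617 from metastases. WM983A and WM983B came from the same patient, as did WM278 and WM1617, so the 5 lines stood for 3 patients. Each resistant line was a single derived culture, and each line and state was sequenced as 1 library. The 5 lines therefore served as the replicates of each group, and a difference within 1 line had no replicate check.

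Cells license their replication origins when the loading factors CDC6 and CDT1 place the MCM2-7 helicase on DNA, and CDC45 and the GINS complex then turn the helicase on in S phase. In mitosis, CDK1 with cyclins A and B, PLK1 and the Aurora kinases condense and align the chromosomes, and the spindle checkpoint holds the anaphase-promoting complex until every kinetochore is attached. Most of these genes are switched on only in cycling cells, the replication genes mainly by E2F factors and the mitosis genes mainly through the CHR element bound by the DREAM and MYBL2-FOXM1 complexes, and in BRAF-mutant melanoma cells the RAF, MEK and ERK kinases drive entry into this cycle. In RNA from bulk cultures, fewer cycling cells and less RNA of these genes per cycling cell cannot be told apart. Nor can acquired resistance be told apart from the presence of the inhibitors, as only the resistant cells were kept in them.

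The libraries held 13693922 to 18033247 counts, and the lowest count of any of the 43 genes in any library was 177 (MCM10). Counting error alone gave a within-line log2 ratio an SE of at most 0.125 (MCM10). Levels below are normalized counts, that is, the count divided by the library's effective size and multiplied by the mean effective size, and ratios are log2 of resistant to sensitive after adding 1 normalized count. The resistant WM983A library stood apart: over all tested genes its log2 level correlated less with its own sensitive library (r = 0.787) than with sensitive WM902B (r = 0.813), whereas the other 4 resistant libraries were closest to their own sensitive library (r = 0.869 to 0.976). The counts of genes across lines are therefore also given without WM983A. The melanocyte factor SOX10 was low in the resistant WM983A, WM983B and WM902B libraries (98.4, 192 and 10.1 normalized counts) and remained at 4165 and 5136 in resistant WM278 and WM1617. The summed level of 7 melanocyte markers spanned 5113 to 67809 in the sensitive and 1310 to 65760 in the resistant libraries. The summed level of 7 fibroblast markers spanned 201 to 1225 and 123 to 25743, with the highest value in resistant WM902B. The 4 leukocyte markers summed to 16.9 to 60.3 in the sensitive and 1.94 to 77.3 in the resistant libraries, and the T cell marker CD3E was at 0 in 8 of the 10 libraries. The 5 keratinocyte markers summed to 317 to 883 and 372 to 1323. The part of these markers in the results below was not tested.

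Both gene sets were lower in 3 of the 5 resistant lines and near the level of the sensitive cells in the other 2. The median log2 ratio of the 23 replication genes was -1.07 in WM983B, -1.12 in WM278 and -1.16 in WM902B, against 0.02 in WM983A and -0.08 in WM1617. The median of the 20 mitosis genes was -0.80 in WM983B, -0.85 in WM278 and -0.60 in WM902B, against 0.09 in WM983A and 0.12 in WM1617. Over all tested genes the median was between -0.01 and 0.03 in every line. The replication median lay below the mitosis median in all 5 lines, by 0.07 in WM983A and 0.19 in WM1617, by 0.27 in both WM983B and WM278, and by 0.56 in WM902B, and with 1 library per line and state this difference was not tested. This order depended on the genes listed, as it was reversed in WM983A, WM983B and WM278 for the further genes described below. The lines of a patient did not move together: WM983B was low and WM983A was not, and WM278 was low and WM1617 was not.

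**Figure D1:**
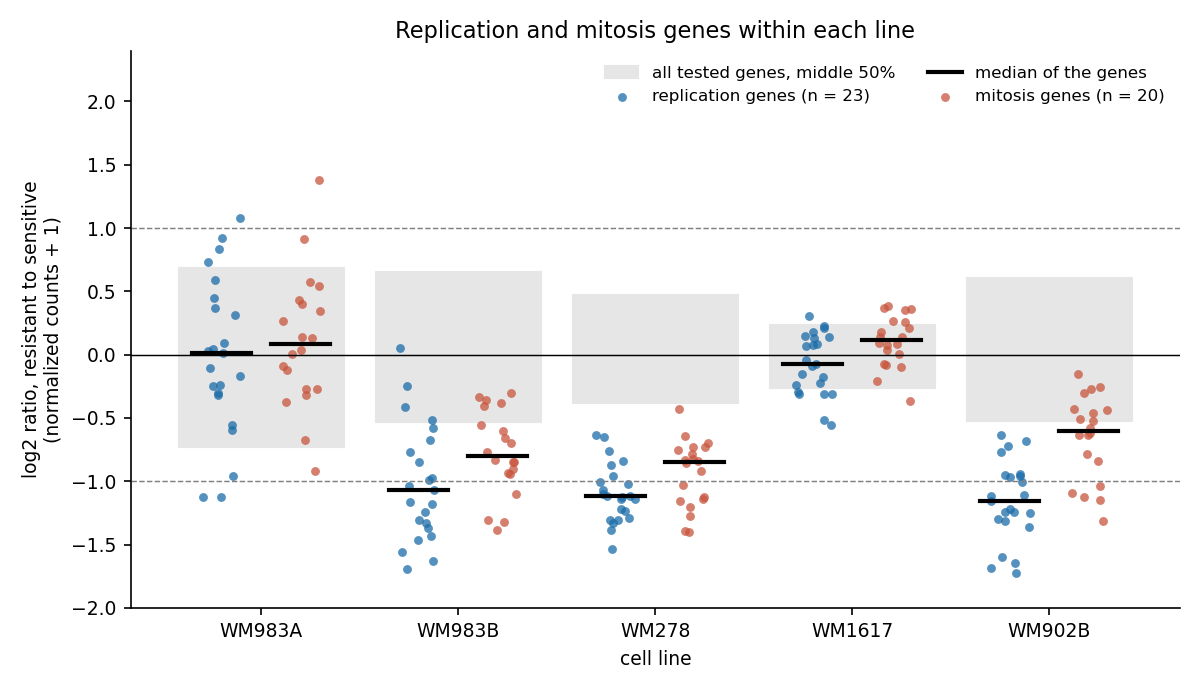
Log2 ratio of resistant to sensitive normalized counts (y axis) of the 23 replication genes (blue points) and the 20 mitosis genes (red points) in each of the 5 lines (x axis), with black bars at the median of each set, grey boxes for the middle 50% of all tested genes and dashed lines at a 2-fold difference. Both sets lie below 0 in WM278 and WM902B and, but for 1 replication gene, in WM983B, and they straddle 0 in WM983A and WM1617.

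Counted at a 2-fold difference, 13 of 23 replication genes were lower in resistant WM983B, where 11.2% of all tested genes were at least 2-fold lower. The count was 17 of 23 in WM278 (all tested genes 7.02%) and 15 of 23 in WM902B (12%), but 2 of 23 in WM983A (19.4%) and 0 of 23 in WM1617 (3.79%). Of the 20 mitosis genes, 4 were at least 2-fold lower in WM983B, 8 in WM278, 5 in WM902B and 0 in WM983A and WM1617. At a 1.5-fold difference, 4 replication and 2 mitosis genes were lower in WM983A (all tested genes 28.6%) and 5 and 2 were higher (28.3%). At this fold WM983B had 18 replication and 14 mitosis genes lower (22.9%), WM278 had 23 and 19 (16.6%), and WM902B had 23 and 10 (23%). In the other direction, MCM3 and TOP2A were at least 2-fold higher in WM983A, where 16.9% of all tested genes were, and none of the 43 genes in the other 4 lines, where 2.83% to 16.2% were. A total of 10 replication genes (CDC45, CDC6, E2F1, FEN1, GINS2, MCM10, MCM2, RFC3, RRM2 and TYMS) and 0 mitosis genes were at least 2-fold lower in 3 or more lines, against 5% of all tested genes. In all 5 lines, CDC45, MCM5, RFC3 and RRM2 of the replication genes and AURKB and TTK of the mitosis genes were lower to any degree, 17.4% and 10% of each set against 5.33% of all tested genes. Each of the 43 genes was lower in 3 or more lines, as were 49.7% of all tested genes.

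With the 5 lines as replicates, none of the 43 genes passed an adjusted p of 0.05 in edgeR's quasi-likelihood test, and neither did any of the 17287 tested genes (0%). The smallest adjusted p among the 43 was 0.630 for CDC45. At an unadjusted p of 0.05 or less, 6 of 23 replication genes (CDC45, E2F1, FEN1, MCM5, RFC3 and RRM2) and 0 of 20 mitosis genes were lower, against 2.34% of all tested genes, and 0 of the 43 were higher, against 4.81%. With a 2-fold difference required as well, CDC45, E2F1 and RRM2 remained, against 0.885% of all tested genes. The log2 fold change was below 0 for 23 of 23 replication genes, with a median of -0.58, and for 19 of 20 mitosis genes, with a median of -0.37, where the median of all tested genes was 0.03. The resistant and sensitive libraries overlapped for each of the 43 genes, whereas 0.318% of all tested genes had every resistant library below every sensitive one. DESeq2 and limma-voom also gave 0 adjusted calls among the 43, where DESeq2 had 0.104% and limma-voom 0% of all tested genes lower at this threshold and a 2-fold difference. At an unadjusted p of 0.05 or less both had 6 replication genes lower, with 0 mitosis genes by DESeq2 and 1 by limma-voom, against 2.91% and 3.25% of all tested genes.

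Taking out the cell line as a replicate block, since each resistant line derives from its own sensitive line, moved these counts to 13 replication genes (CDC45, E2F1, FEN1, GINS1, MCM10, MCM4, MCM5, PCNA, POLA1, RFC3, RFC4, RRM2 and TYMS) and 3 mitosis genes (AURKB, BUB1B and UBE2C) at an unadjusted p of 0.05 or less, against 4.99% of all tested genes. With this block the smallest adjusted p of the 43 in edgeR was 0.462. Without WM983A the counts in edgeR were 7 replication genes and 2 mitosis genes, against 1.49% of all tested genes. Without WM1617 they were 9 and 2, against 5.29%, and without WM278 3 and 0, against 2.04%. Leaving out WM983B or WM902B left 1 replication gene, CDC45, with 1 and 0 mitosis genes, against 0.941% and 0.95% of all tested genes. The 5 replication genes that no longer passed had log2 fold changes from -0.53 (MCM5) to -0.99 (E2F1) without WM983B and from -0.51 (MCM5) to -1.21 (RRM2) without WM902B. With 1 line per patient (WM983A, WM278 and WM902B), the counts were 4 and 1, against 2.83%.

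**Figure D2:**
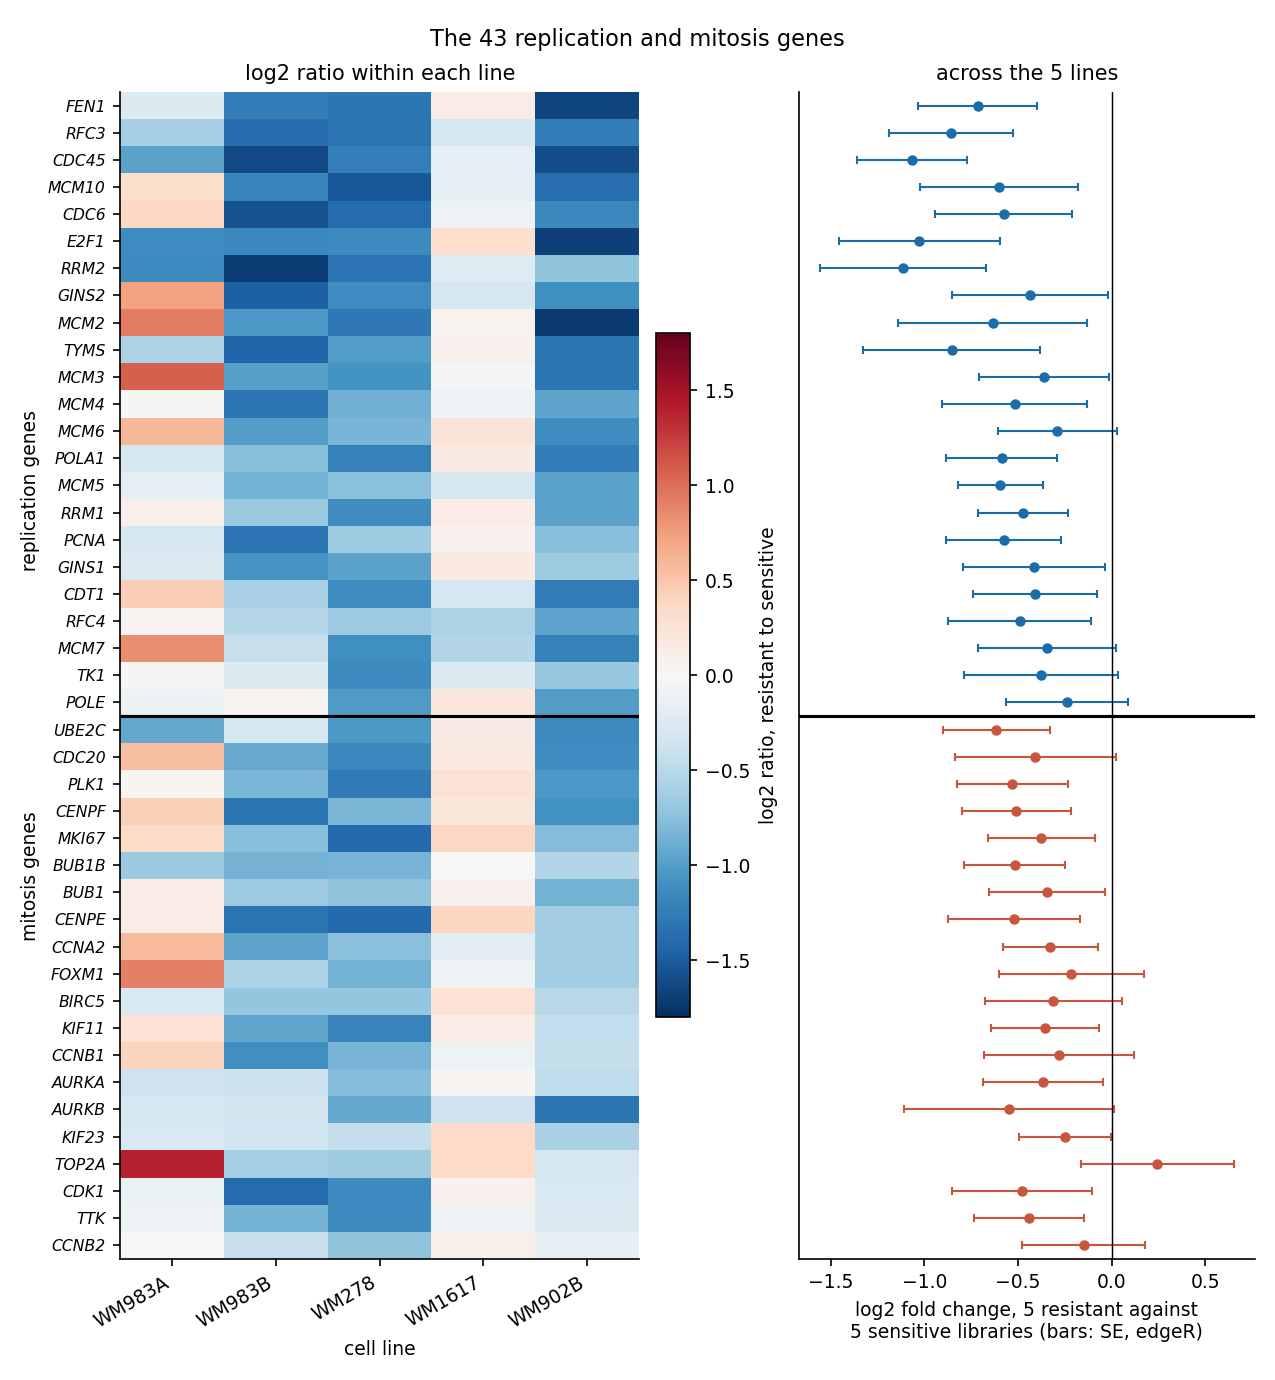
Left, log2 ratio of resistant to sensitive (colour, blue lower and red higher in resistant) of each of the 43 genes (rows) in each line (columns), with replication genes above the black line and mitosis genes below it, each ordered by median ratio. Right, log2 fold change of 5 resistant against 5 sensitive libraries (x axis) with its SE from edgeR as bars. Each gene but TOP2A has its point below 0, and in the columns of WM983A and WM1617 red and blue cells are mixed.

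The proliferation marker MKI67, a protein that coats mitotic chromosomes (chr10:128096659-128126423, GRCh38), had normalized counts of 5708, 6273, 7235, 4464 and 6253 in sensitive WM983A, WM983B, WM278, WM1617 and WM902B, an order used for all levels below, and 7254, 3686, 2749, 5762 and 3628 in their resistant lines. MKI67 was thus lowest in resistant WM278 and highest in resistant WM983A, and the groups overlapped. Its log2 ratios were 0.35, -0.77, -1.40, 0.37 and -0.79. Across the 5 lines its log2 fold change was -0.38 ± 0.28 (SE, n = 5 libraries per group, edgeR adjusted p = 0.817). It was -0.62 without WM983A and -0.16 without WM278. The other proliferation marker, MCM5, a subunit of the helicase (chr22:35400134-35425431), had 3666, 4428, 3140, 2695 and 3444 in the sensitive and 3265, 2456, 1854, 2172 and 1758 in the resistant lines. Resistant WM983A was inside the sensitive range and the other 4 resistant lines were below it, and all 5 ratios were below 0, at -0.17, -0.85, -0.76, -0.31 and -0.97. MCM5 had a log2 fold change of -0.59 ± 0.23 (edgeR unadjusted p = 0.0240, adjusted p = 0.656).

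**Figure D3:**
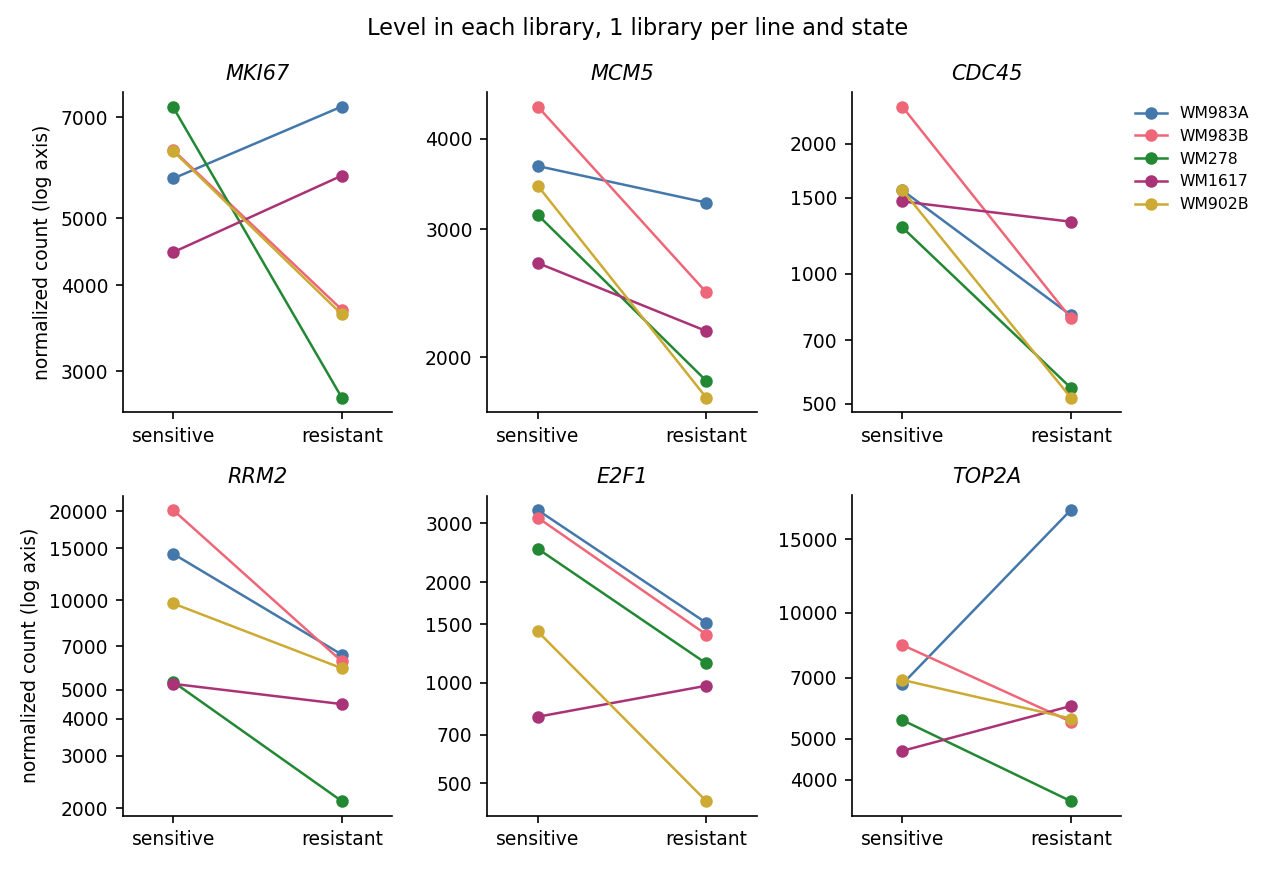
Normalized count (y axis, log scale) of MKI67, MCM5, CDC45, RRM2, E2F1 and TOP2A in the sensitive and the resistant library of each line, joined by a line per cell line, with 1 library per point and no error bar. CDC45, MCM5 and RRM2 slope down in all 5 lines, MKI67 slopes up in WM983A and WM1617, E2F1 slopes up in WM1617, and the steepest upward line is that of TOP2A in WM983A.

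The 6 subunits of the MCM2-7 hexamer, the replicative helicase, were lower in resistant WM983B (median log2 ratio -0.98), WM278 (-0.97) and WM902B (-1.17), with each of the 6 below 0. In WM1617 their median was -0.06, from -0.52 for MCM7 to 0.23 for MCM6. In WM983A the subunits separated: MCM3 (1.08), MCM2 (0.92), MCM7 (0.84) and MCM6 (0.59) were higher, while MCM4 (0.03) and MCM5 (-0.17) were not. Their range within WM983A was 1.25 on the log2 scale, against 0.53 in WM278 and 0.89 in WM983B. MCM3 had 1938, 3014, 2746, 3091 and 4146 normalized counts in the sensitive and 4101, 1534, 1305, 3009 and 1670 in the resistant lines, so resistant WM983A was close to sensitive WM902B, resistant WM1617 was inside the sensitive range and the other 3 resistant lines were below it. MCM2 had the widest spread of the 6 among sensitive lines, 2066, 3972, 1689, 1797 and 6746, and 3922, 1936, 690, 1882 and 2044 among resistant ones. Without WM983A, MCM3 had an edgeR log2 fold change of -0.79 ± 0.31 in place of -0.36 ± 0.35, and MCM2 of -1.12 ± 0.53 in place of -0.64 ± 0.50. Without WM902B they were closer to 0, at -0.11 for MCM3 and -0.17 for MCM2, and MCM3 was at -0.24 without WM278, so the values of both depended on which line was left out.

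The loading factors CDC6 and CDT1 and the activators CDC45, GINS1, GINS2 and MCM10 had a median ratio of -1.32 in WM983B. In that line 5 of 6 were at least 2-fold lower, against 11.2% of all tested genes. The same number was at least 2-fold lower in WM278 (median -1.18, all tested genes 7.02%) and in WM902B (median -1.21, all tested genes 12%). CDC45, which joins MCM2-7 and GINS into the active helicase (chr22:19479457-19520612), had 1561, 2440, 1281, 1471 and 1564 in the sensitive and 802, 789, 544, 1320 and 516 in the resistant lines. The 4 resistant lines other than WM1617 lay below the lowest sensitive line, and resistant WM1617 lay inside the sensitive range. Its ratios were -0.96, -1.63, -1.23, -0.16 and -1.60, and its log2 fold change of -1.07 ± 0.29 had the smallest p of the 43 genes (edgeR unadjusted p = 0.00429, adjusted p = 0.630). CDC45 was the single gene of the 43 with an unadjusted p of 0.05 or less whichever line was left out. CDC6 had 1397, 1793, 1283, 1648 and 1550 in the sensitive lines and 1802, 607, 490, 1551 and 694 in the resistant ones. It was under the sensitive range in WM983B, WM278 and WM902B and just above it in WM983A, and its ratios were 0.37, -1.56, -1.39, -0.09 and -1.16. CDT1 had ratios of 0.45, -0.58, -1.12, -0.30 and -1.25, so it was at least 2-fold lower in WM278 and WM902B and not in WM983B. The scaffold MCM10 was the lowest of the 43 genes in WM278 (-1.53). GINS1 and GINS2, which sit in the same complex, differed in WM983A (-0.24 and 0.73).

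At the replication fork, the polymerase subunits POLA1 and POLE, the sliding clamp PCNA, the clamp loader subunits RFC3 and RFC4 and the flap nuclease FEN1 had medians of -1.01, -1.12 and -1.12 in WM983B, WM278 and WM902B, and of -0.28 and 0.11 in WM983A and WM1617. FEN1, which trims the ends of lagging-strand fragments (chr11:61792911-61797238), was nearly the same in all sensitive lines, 2286, 2345, 2352, 2178 and 2309, and ranged widely in the resistant ones, 1920, 988, 952, 2385 and 736. Its SD on the log2 scale was 0.04 in the sensitive and 0.73 in the resistant group (n = 5 lines each). FEN1 lay under the sensitive range in each resistant line but WM1617, and its ratios were -0.25, -1.25, -1.30, 0.13 and -1.65 (log2 fold change -0.72 ± 0.32, edgeR unadjusted p = 0.0467, adjusted p = 0.694). RFC3 (chr13:33818069-33966558) had 1438, 1798, 1071, 1867 and 1401 in the sensitive and 950, 696, 432, 1506 and 592 in the resistant lines. Only resistant WM1617 was inside the sensitive range, and all 5 ratios were below 0, at -0.60, -1.37, -1.31, -0.31 and -1.24 (log2 fold change -0.86 ± 0.33, edgeR unadjusted p = 0.0252, adjusted p = 0.665). The other clamp loader subunit, RFC4, had ratios of 0.05, -0.52, -0.65, -0.56 and -0.94. POLE was the one replication gene that was not lower in WM983B (0.05). PCNA (-0.31, -1.33, -0.64, 0.08 and -0.77) had its lowest ratio in WM983B, and POLA1 (-0.32, -0.77, -1.22, 0.15 and -1.24) in WM902B. PCNA also had the highest level per kilobase of exon of the 43 genes, with a median over the 10 libraries of 3515 normalized counts per kilobase, and POLA1 the lowest, with 46.5.

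Among the enzymes of nucleotide supply, RRM2, the regulated small subunit of ribonucleotide reductase (chr2:10120698-10211725), had 14356, 20159, 5318, 5239 and 9769 in the sensitive and 6574, 6236, 2110, 4477 and 5913 in the resistant lines. Its level was lower in all 5 resistant lines, and the groups overlapped, as sensitive WM278 and WM1617 were low. The ratios were -1.13, -1.69, -1.33, -0.23 and -0.72, and the log2 fold change of -1.12 ± 0.44 was the lowest of the 43 genes (edgeR unadjusted p = 0.0298, adjusted p = 0.675). RRM1, the large subunit, had ratios of 0.09, -0.67, -1.12, 0.14 and -0.96, so the subunits differed most in WM983A. TYMS, which makes the thymidylate for DNA, had 5655, 8167, 2733, 2593 and 2367 in the sensitive against 3841, 3017, 1357, 2726 and 959 in the resistant lines, and its ratios were -0.56, -1.44, -1.01, 0.07 and -1.30. Of its exon bases, 39.9% overlap ENOSF1 on the opposite strand. Strand-aware counting is not given in the sources used here, so reads of these genes may not be separated. Smaller overlaps on the opposite strand include 23.6% of the exon bases of MCM2, 15.9% of FOXM1 and 11.6% of PLK1. The salvage enzyme TK1 was at least 2-fold lower in WM278 alone (-1.14).

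E2F1, the transcription factor that activates many genes of this set (chr20:33675477-33686385), had 3290, 3123, 2521, 792 and 1425 normalized counts in the sensitive and 1512, 1395, 1143, 981 and 443 in the resistant lines. WM1617 had the lowest sensitive level and was the only line in which E2F1 was higher in resistant cells. The 5 ratios were -1.12, -1.16, -1.14, 0.31 and -1.68. The log2 fold change was -1.03 ± 0.43 (edgeR unadjusted p = 0.0377, adjusted p = 0.685). In WM983A, E2F1 and RRM2 were the replication genes at least 2-fold lower, CDC45 came next (-0.96), and MCM3 was 2.12-fold higher.

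The cyclins CCNA2, CCNB1 and CCNB2, their partner CDK1 and the kinases PLK1, AURKA and AURKB had medians of -0.83, -0.84 and -0.46 in WM983B, WM278 and WM902B, and of 0.01 and 0.03 in WM983A and WM1617. CDK1 had 3070, 4134, 1610, 2720 and 2509 in the sensitive and 2816, 1582, 730, 2868 and 2076 in the resistant lines. It was at least 2-fold lower in WM983B and WM278 (-1.39 and -1.14), whereas the ratios in WM983A, WM1617 and WM902B were -0.12, 0.08 and -0.27. PLK1, which acts in centrosome maturation and mitotic exit, had 2212, 2414, 1902, 1462 and 3098 in the sensitive against 2270, 1359, 784, 1751 and 1511 in the resistant lines, with ratios of 0.04, -0.83, -1.28, 0.26 and -1.04. AURKB, the kinase of the chromosomal passenger complex, had 1475, 1487, 448, 2749 and 1822 in the sensitive against 1181, 1179, 236, 2130 and 732 in the resistant lines. Its spread among lines was the widest of the mitosis genes in both groups, and it was lower in all 5 resistant lines (-0.32, -0.33, -0.92, -0.37 and -1.31). Its log2 fold change was -0.55 ± 0.56 without the block (edgeR unadjusted p = 0.348). With the block it was -0.65 ± 0.21 (edgeR unadjusted p = 0.0181, adjusted p = 0.462). AURKA, its relative at the spindle poles, had ratios of -0.37, -0.38, -0.79, 0.03 and -0.46. Of the cyclins, CCNA2 had ratios of 0.57, -0.94, -0.75, -0.21 and -0.63 and CCNB1 of 0.40, -1.10, -0.84, -0.09 and -0.43, both higher in WM983A and lower in the other 4 lines. CCNB2 was the mitosis gene with the median ratio nearest 0 (-0.15).

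The spindle checkpoint kinases BUB1, BUB1B and TTK, the activator CDC20 and the conjugating enzyme UBE2C of the anaphase-promoting complex, and the passenger protein BIRC5 (survivin) had medians of -0.77, -0.94 and -0.68 in WM983B, WM278 and WM902B. UBE2C (chr20:45812576-45816957) had 4036, 3439, 2545, 2066 and 2769 in the sensitive and 2137, 2787, 1244, 2281 and 1251 in the resistant lines. It was lower in WM983A, where 12 of the 20 mitosis genes and 8842 of all 17287 tested genes were higher. UBE2C was lowest in WM278 and WM902B, with ratios of -0.92, -0.30, -1.03, 0.14 and -1.15. The log2 fold change was -0.61 ± 0.29, and its edgeR unadjusted p of 0.0568 was the smallest of the mitosis genes (adjusted p = 0.703). CDC20 had 2892, 3445, 1733, 2033 and 5142 in the sensitive against 4221, 1842, 776, 2304 and 2358 in the resistant lines, and was at least 2-fold lower in WM278 and WM902B (-1.16 and -1.12). A processed copy, CDC20P1, carried counts equal to 5.28% to 10.8% of those of CDC20. TTK (chr6:80003887-80042527) had 913, 1404, 698, 824 and 862 in the sensitive against 857, 781, 319, 781 and 721 in the resistant lines, so resistant WM278 was far below the other 4 resistant lines, which spanned 721 to 857. BUB1B had ratios of -0.67, -0.85, -0.84, 0.00 and -0.52, so of the checkpoint kinases it was the lowest in WM983A, while BUB1 (0.13, -0.66, -0.73, 0.08 and -0.84) was at or above its sensitive level in WM983A and WM1617. BIRC5 had ratios of -0.27, -0.70, -0.70, 0.26 and -0.51.

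The remaining mitosis genes build chromosomes and the spindle: topoisomerase TOP2A, the kinetochore proteins CENPE and CENPF and the motors KIF11 and KIF23. TOP2A (chr17:40388525-40417896) had 6755, 8382, 5548, 4683 and 6917 in the sensitive and 17590, 5502, 3553, 5992 and 5594 in the resistant lines. Resistant WM983A had more than 2 times the level of any other library, and was 2.60-fold above sensitive WM983A. The ratios were 1.38, -0.61, -0.64, 0.36 and -0.31, and TOP2A was the single gene of the 43 with a log2 fold change above 0 (0.24 ± 0.41, edgeR adjusted p = 0.936). Without WM983A the fold change was -0.31, the reverse direction. CENPE had 1932, 3222, 1539, 1263 and 1961 in the sensitive against 2129, 1292, 581, 1643 and 1264 in the resistant lines, with WM278 and WM983B the lines in which it was least relative to sensitive cells (-1.40 and -1.32). CENPF had ratios of 0.43, -1.31, -0.82, 0.21 and -1.10. The motor KIF11, which pushes the spindle poles apart, had ratios of 0.27, -0.93, -1.20, 0.14 and -0.44, and KIF23, a motor of cytokinesis, of -0.27, -0.36, -0.43, 0.36 and -0.58. FOXM1, the factor that activates many mitosis genes, had 1727, 1288, 3394, 3079 and 3465 in the sensitive against 3249, 877, 1879, 2903 and 2253 in the resistant lines, and was higher in resistant WM983A (0.91), lower in WM983B, WM278 and WM902B (-0.55, -0.85 and -0.62) and near its sensitive level in WM1617 (-0.09).

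The 5 sensitive lines were more alike in these genes than the 5 resistant lines. The SD of the log2 level over lines was larger in the resistant than in the sensitive group for 21 of 23 replication genes and 19 of 20 mitosis genes, against 64.9% of all tested genes. The median SD of the replication genes was 0.35 in the sensitive and 0.74 in the resistant group, that of the mitosis genes 0.40 and 0.63, and that of all tested genes 0.51 and 0.62. As a single scale per library, the median over a set of the log2 level minus each gene's mean over the 10 libraries was -1.02 for replication genes in resistant WM278, -0.75 in WM902B and -0.48 in WM983B, and 0.28 and 0.39 in resistant WM1617 and WM983A. In the sensitive lines it spanned 0.06 to 0.51. For the mitosis genes the resistant lines spanned -1.16 (WM278) to 0.44 (WM983A), and the sensitive lines -0.19 to 0.45.

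Other genes of the same processes also had their lowest medians in WM983B, WM278 and WM902B, although not in the same order. Of 45 further replication genes, such as the origin recognition complex and the DNA polymerase subunits, 40 had a log2 fold change below 0 (median -0.36), as did 8124 of all 17287 tested genes. Of these 45, 4 were lower and 0 higher at an unadjusted p of 0.05 or less in edgeR, against 2.34% and 4.81% of all tested genes. Of 57 further mitosis genes, 51 were below 0 (median -0.43), and 10 were lower and 0 higher, to be read against the same shares. Their within-line medians in WM983B, WM278 and WM902B were -0.80, -0.78 and -0.70 for the replication genes and -0.90, -0.90 and -0.62 for the mitosis genes, and in WM983A and WM1617 they were 0.30 and -0.13, and -0.03 and 0.02. The replication median of these further genes thus lay above their mitosis median in WM983A, WM983B and WM278, and below it in WM1617 and WM902B. The lowest further replication genes were DSCC1 (log2 fold change -1.01), a subunit of an alternative clamp loader, GINS4 (-0.99), a further GINS subunit, and MCM8 (-0.83), and the highest were ORC2 (0.16), LIG1 (0.13) and ORC3 (0.08). The lowest further mitosis genes were KNL1, a kinetochore scaffold, PBK (-0.97) and CDCA2 (-0.93), and the highest were CDC25B (0.29), CKS2 (0.24) and KIF18A (0.18). None of these 12 had an adjusted p under 0.05 in edgeR.

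The regulators of these genes were mixed. Of 18 genes of the E2F family and the DREAM complex, 15 had a log2 fold change below 0 (median -0.32), with 2 lower and 0 higher at an unadjusted p of 0.05 or less in edgeR, against 2.34% and 4.81% of all tested genes. E2F8, itself induced in S phase, was the lowest (-1.14 ± 0.33, unadjusted p = 0.00558 and adjusted p = 0.630 in edgeR), followed by the pocket protein RBL1 (-0.77) and LIN9 (-0.62). The highest were LIN37 (0.63), the pocket protein RBL2 (0.52) and TFDP2 (0.50). Subunits of the anaphase-promoting complex and cohesin, which are expressed through the whole cycle, had a median log2 fold change of -0.10 over 16 genes, with 11 below 0 and 0 of 16 at an unadjusted p of 0.05 or less. The lowest of these were STAG1 (-0.45), CDC27 (-0.23) and ANAPC1 (-0.23), and the highest ANAPC2 (0.40), ANAPC11 (0.20) and CDC26 (0.17). In WM983A the median of these 16 genes was 0.46.

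**Figure D4:**
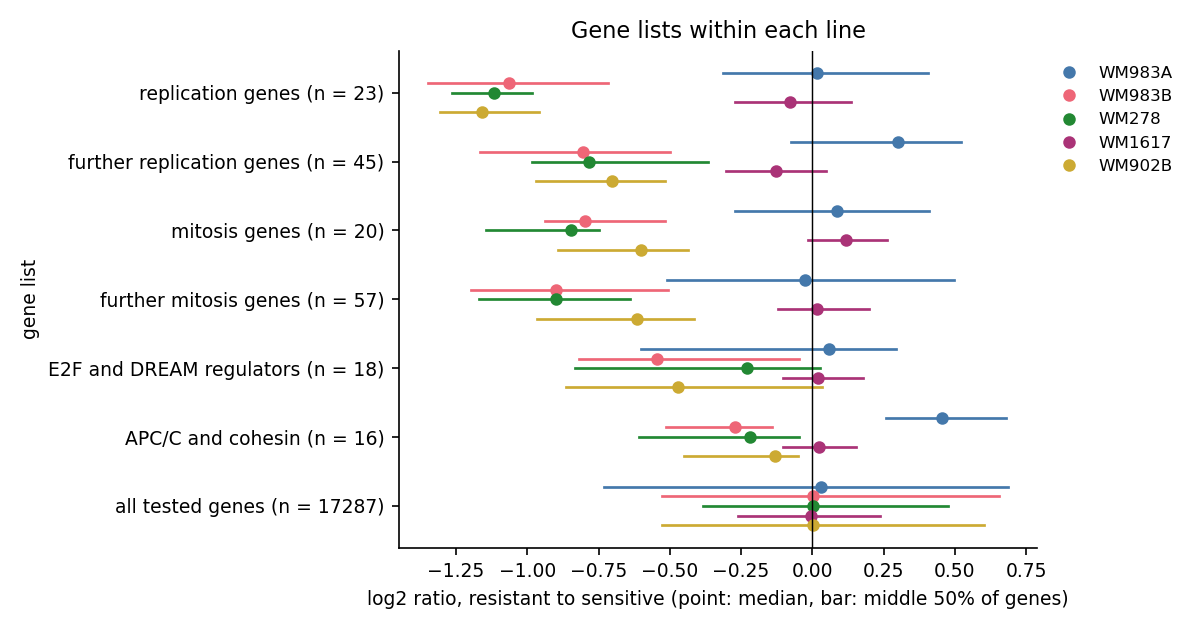
Median log2 ratio of resistant to sensitive (points, x axis) and the middle 50% of genes (bars) of each gene list (rows) in each line (colours). The lists of replication and mitosis genes lie left of 0 in WM983B, WM278 and WM902B, the anaphase-promoting complex and cohesin genes lie closer to 0 in these lines, and the medians of all tested genes lie at 0.

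The promoters of both sets differed in the short words they hold. Windows of 300 bases, from 250 bases before to 50 after the RefSeq start of each gene (GRCh38.p14), were searched on both strands for the E2F core (the word TTCCCGC, the word TTCGCGC, the word TTGCCGC or the word TTGGCGC), the CHR (TTTGAA or TTCGAA) and the box bound by NF-Y (CCAAT). Windows were found for 21 of 23 replication genes and 15 of 20 mitosis genes, with no entry for MCM4, MCM5, AURKA, BIRC5, TTK, UBE2C and FOXM1. The E2F core stood in 16 of 21 replication promoters (76.2%) and 2 of 15 mitosis promoters (13.3%), and in 12.8% of all 27303 promoters. The CHR stood in 2 of 21 replication promoters (9.52%) and 11 of 15 mitosis promoters (73.3%), and in 16.8% of all promoters. The NF-Y box stood in 66.7% and 86.7% of these promoters and in 35.6% of all. The words can overlap, as TTCGAA is read on both strands and several E2F words run into each other, and a match is only a match of letters. In the list of further genes, the E2F core stood in 62.2% of replication and 35.4% of mitosis promoters, and the CHR in 8.11% and 72.9%.

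**Figure D5:**
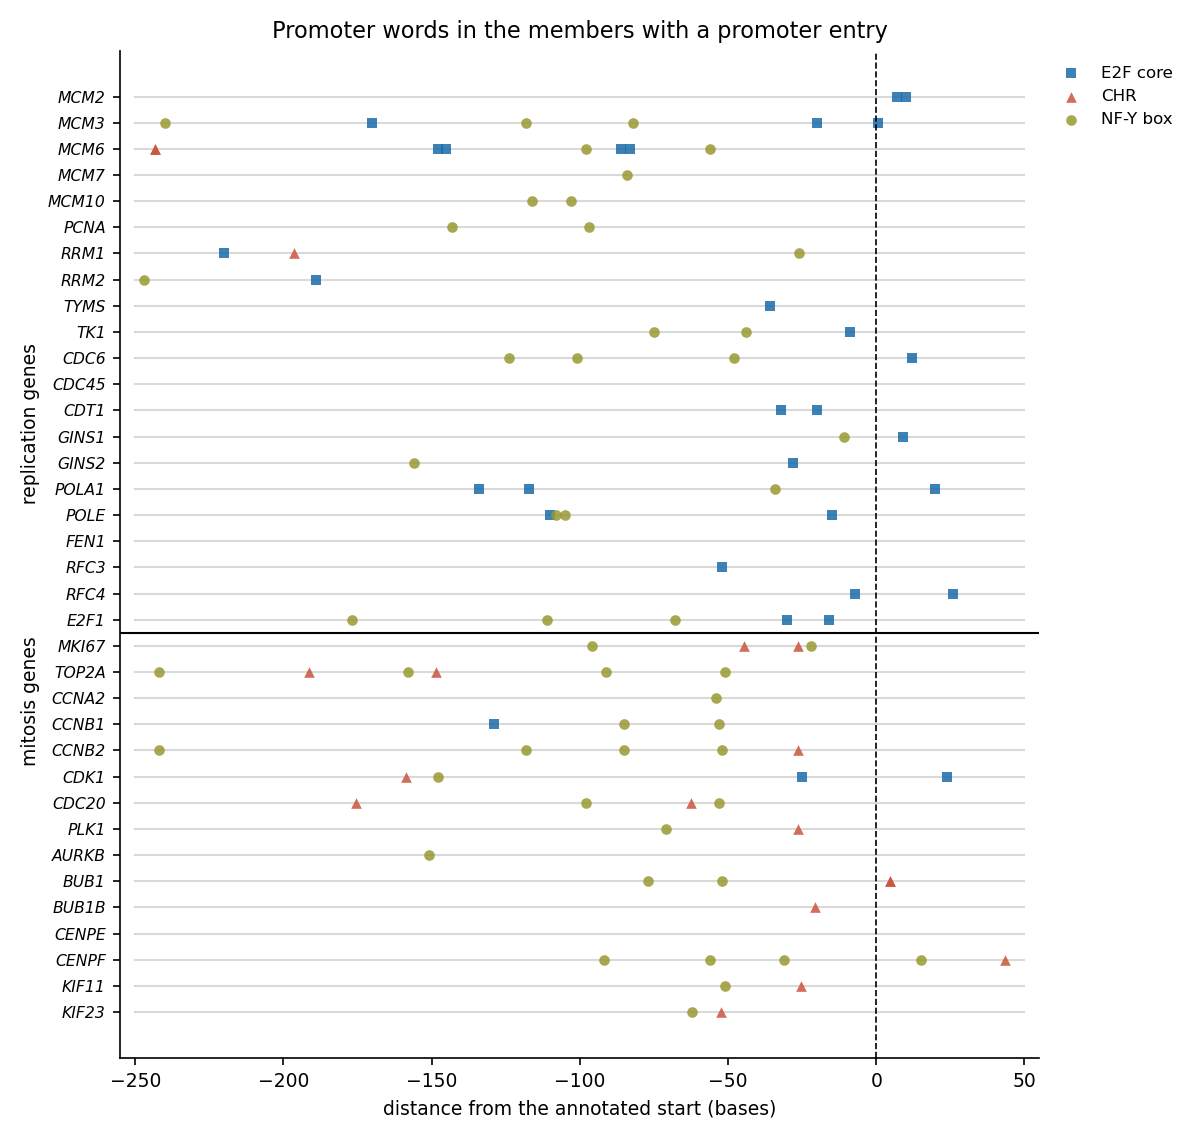
Position of E2F core words (squares), CHR words (triangles) and the 5-base box bound by NF-Y (circles) relative to the annotated start (x axis, bases, dashed line at the start) in each gene with a promoter window (rows, replication genes above the black line). Squares gather in the rows of replication genes and triangles in those of mitosis genes, and the CDC45, FEN1 and CENPE rows are empty.

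The bases before the start are shown 5′ to 3′ for the replication genes with the lowest median ratios over the 5 lines (FEN1 -1.25, RFC3 -1.24 and CDC45 -1.23) and, chosen after their values and words were seen, for CDT1 and E2F1, with E2F core words in capitals. Up to 150 bases are printed, leaving out stretches annotated as exons of protein-coding transcripts.
FEN1 (chr11:61792803-61792910, plus strand): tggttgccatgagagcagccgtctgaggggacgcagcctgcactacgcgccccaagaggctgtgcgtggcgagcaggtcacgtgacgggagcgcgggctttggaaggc
RFC3 (chr13:33817999-33818068, plus strand): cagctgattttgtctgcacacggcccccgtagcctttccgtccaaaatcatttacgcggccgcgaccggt
CDC45 (chr22:19479316-19479456, plus strand): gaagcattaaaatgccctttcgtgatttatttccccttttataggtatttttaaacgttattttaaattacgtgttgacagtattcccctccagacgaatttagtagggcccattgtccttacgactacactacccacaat
CDT1 (chr16:88803639-88803788, plus strand): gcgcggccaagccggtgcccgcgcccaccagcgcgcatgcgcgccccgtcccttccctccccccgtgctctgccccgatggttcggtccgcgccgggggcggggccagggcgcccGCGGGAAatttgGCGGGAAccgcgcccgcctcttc
E2F1 (chr20:33686386-33686535, minus strand): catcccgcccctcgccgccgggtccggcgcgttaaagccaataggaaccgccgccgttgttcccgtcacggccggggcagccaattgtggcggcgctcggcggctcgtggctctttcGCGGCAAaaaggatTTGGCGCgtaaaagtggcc
CDT1 and E2F1 each hold 2 E2F core words within 50 bases of the start, and FEN1 and CDC45 hold none in the whole 300-base window. The word of RFC3 stood at 55 to 49 bases before its RefSeq start, past the stretch printed.

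For the mitosis genes with a window, those with the lowest median ratios were CDC20 (-0.90), PLK1 (-0.83) and CENPF (-0.82), and MKI67 (-0.77) was added after its words were seen. Capitals mark the CHR and the NF-Y box.
CDC20 (chr1:43358831-43358980, plus strand): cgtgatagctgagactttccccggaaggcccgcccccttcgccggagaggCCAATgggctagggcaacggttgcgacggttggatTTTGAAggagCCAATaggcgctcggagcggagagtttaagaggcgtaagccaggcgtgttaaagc
PLK1 (chr16:23678739-23678888, plus strand): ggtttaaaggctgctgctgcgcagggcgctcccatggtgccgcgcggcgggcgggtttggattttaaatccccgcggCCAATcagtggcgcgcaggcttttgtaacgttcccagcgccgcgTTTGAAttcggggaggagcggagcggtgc
CENPF (chr1:214603045-214603194, plus strand): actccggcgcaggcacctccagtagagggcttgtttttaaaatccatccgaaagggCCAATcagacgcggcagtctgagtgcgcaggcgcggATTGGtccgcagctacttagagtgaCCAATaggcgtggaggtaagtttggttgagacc
MKI67 (chr10:128126424-128126573, minus strand): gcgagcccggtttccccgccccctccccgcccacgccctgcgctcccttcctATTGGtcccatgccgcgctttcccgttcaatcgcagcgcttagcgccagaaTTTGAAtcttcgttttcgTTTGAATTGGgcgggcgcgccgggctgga
CDC20 and PLK1 each hold a CHR downstream of an NF-Y box, and MKI67 holds a pair of CHR words, the second of which runs into an inverted NF-Y box. The CHR of CENPF stood 41 to 46 bases after its start and is not in the stretch printed.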

How the data were processed

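mRNA was selected with oligo-dT beads and sequenced from 1 end in 10 libraries. The authors aligned reads to GRCh38 with HISAT2, normalized with the DESeq algorithm and used StrandNGS for statistical analysis. The quantification tool, tool versions and gene annotation are not given in the sources used here. The deposited raw values are expected counts, of which 24.1% of those above 0 are whole as written (tolerance 0). The deposited normalized values are log2 ratios to the sensitive library of the same line, which could be rebuilt to within 1.57e-06, and 0 in the sensitive libraries. In sensitive WM983B, 455 raw values held as dates were recovered from the normalized values, and none belonged to a listed gene.

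Expected counts, rounded to whole numbers, were tested with edgeR 4.0.16 in R 4.3.3 (filterByExpr by condition, TMM, glmQLFit and glmQLFTest, two-sided, all 10 libraries, Benjamini-Hochberg adjustment over 17287 genes), with limma 3.58.1 and DESeq2 1.42.0 as alternatives, and tables and plots were made in Python 3.11.15 with pandas 2.3.3, numpy 2.4.6 and matplotlib 3.10.9. Each of these fits was first run on simulated counts. These counts were drawn without a cell line effect, so they cannot check how the replicate block handles paired lines. As no line was repeated, p-values measure the spread between these lines. Alternatives were other scalings, filters, pseudocounts and folds, leaving out each line, and 1 line per patient. Within lines, log2 ratios were taken after adding 1 normalized count, without a test. The fit with cell line as replicate block pairs each resistant line with the line it derives from. Deviations from the group means correlated within WM983B, WM278, WM1617 and WM902B (r = 0.54, 0.67, 0.67 and 0.38) and not within WM983A (r = -0.06). Levels per kilobase used the exon length and positions of GENCODE 44.

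Any of the 43 genes could be named. Of the 4 further gene lists, the 3 highest and 3 lowest tested genes by log2 fold change were named, and promoters were shown for the 3 replication and 3 mitosis genes with the lowest median ratio that had a window, leaving out chromosome 8. The genes and lists were chosen with earlier results of these data known. Each line and state had 1 library, of 13693922 to 18033247 counts. One marker of the leukocyte list is not reported here.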

Additional observations from a re-analysis of the deposited data

Results flagged for a closer look

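For each of the 43 genes, the 5 sensitive and the 5 resistant libraries were searched for a library far from the others, which gave 86 groups, and chance alone flags about 1 group in 20. One group stood out. TTK, the checkpoint kinase also known as MPS1, had its lowest resistant level in WM278 (319 normalized counts, against 721 to 857 in the other 4 resistant lines), and the gap to the nearest line took 0.825 of the whole range on the log2 scale.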

How the results depend on the processing

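With the cell line as a replicate block, 13 replication and 3 mitosis genes were lower at an unadjusted p of 0.05 or less in edgeR. Without the block the counts were 6 and 0. Of all tested genes, 4.99% were lower with the block and 2.34% without it, and the block changed no adjusted call. Leaving out each line in turn gave 1 to 9 replication and 0 to 2 mitosis genes, against 0.941% to 5.29% of all tested genes. The replication count was 1 without WM983B (0.941%) or WM902B (0.95%) and 3 without WM278 (2.04%). The mitosis count was 1 with limma-voom (all tested genes 3.25%) and with 1 line per patient (2.83%). It was also 1 with DESeq2 size factors, where the share of all tested genes was not computed. At a fold of 1.5, where 28.6%, 22.9%, 16.6% and 23% of all tested genes were lower in WM983A, WM983B, WM278 and WM902B and 28.3% higher in WM983A, the lower replication genes were 4 in WM983A and 23 in WM902B and the higher ones 5 in WM983A, while the lower mitosis genes were 2 in WM983A, 14 in WM983B, 19 in WM278 and 10 in WM902B and the higher ones 2 in WM983A. With library totals in place of TMM, WM983A had 0 replication genes at least 2-fold higher and 1 mitosis gene at least 2-fold lower. The shares of all tested genes were not computed for library totals, and with TMM they were 16.9% higher and 19.4% lower. A change of scaling moves all ratios of a line by nearly the same amount. The WM983A medians went from 0.02 to -0.09 for replication and from 0.09 to -0.02 for mitosis genes. The log2 fold change of TOP2A was 0.24 with all lines and spanned -0.31 (without WM983A) to 0.43 (without WM983B), so that its direction reversed. The adjusted calls among the 43 genes were 0 under every alternative run in edgeR, limma-voom and DESeq2. Library totals, DESeq2 size factors, a pseudocount of 5 and, chosen after seeing the data, the deposited log2 values were also used. With each, every within-line median of both sets moved by less than the SD of the medians over lines. That SD is a wide limit, as it holds the differences between lines. In WM983A, where the medians lay near 0, their sign depended on the scaling. The replication median was -0.09, -0.03 and -0.03 with library totals, DESeq2 size factors and the deposited values. The mitosis median was -0.02 with library totals. Counting error alone gave within-line ratios an SE of at most 0.125, and with 1 library per line and state the error between cultures of a line is unknown.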
